A study of Mus musculus with 12 samples.

Results

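The transcripts of 9 genes were followed, out of 52535 genes in the deposited count tables: the corepressor Ncor1 and its partners Tbl1x and Tbl1xr1, the p160 coactivators Ncoa1, Ncoa2 and Ncoa3, the acetyltransferases Crebbp (CBP) and Ep300 (p300), and the DNA-binding factor Sp1. They were taken by symbol, and all 9 passed the filter on low counts. The cells were 3 lines, named 240, 242 and 352, each grown from the thymic lymphoma of a different mouse. The mice carried 2 transgenes, Dlx5 and myristoylated Akt2, both driven in T cells by the Lck promoter. The study calls the tumor cells CD4/CD8 double-positive, and its flow cytometry figure shows lines 240 and 242. Dlx5 is a homeobox factor, and the myristoyl tag keeps the kinase Akt2 at the membrane and active. Every library came from such doubly transgenic cells, so the set holds no normal thymocyte and no cell with only 1 of the transgenes. From each line there was 1 control library and 1 library of cells given PKF118-310, a small molecule that interferes with the binding of β-catenin to Tcf factors, at a low micromolar dose for less than a day by the study's account. Each library was sequenced over 2 lanes, and these were summed as 1 measurement. The sample labels mark the 2 files of a library as lanes, whereas a caption of the study speaks of separate cultures; if they were cultures, each sum covers 2 cultures and the spread between them was not used. The lines are thus the replicates (n = 3 pairs), and by the labels no library repeats a treatment within a line.

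Coregulators do not find genes on their own. Transcription factors such as Sp1, which binds GC-rich boxes in promoters, nuclear receptors and the SREBP factors recruit them, and the identity of the coregulator decides whether the chromatin is opened or closed. The p160 proteins bring in CBP and p300, which acetylate histones. Ncor1 brings in the histone deacetylase Hdac3, and Tbl1x and Tbl1xr1 sit in the same complex, where they help to exchange corepressors for coactivators. In sterol metabolism Sp1 and NF-Y work beside the SREBP factors on the promoters of cholesterol genes.

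On mm10 the corepressor genes lie at chr11:62316426-62458541 (Ncor1, minus strand), chrX:77511013-77662983 (Tbl1x, plus strand) and chr3:22076652-22216594 (Tbl1xr1, plus strand). The p160 genes lie at chr12:4247362-4477182 (Ncoa1, minus strand), chr1:13139105-13374083 (Ncoa2, minus strand) and chr2:165992636-166073242 (Ncoa3, plus strand). The acetyltransferase genes lie at chr16:4081328-4213997 (Crebbp, minus strand) and chr15:81585351-81652077 (Ep300, plus strand), and Sp1 lies at chr15:102406143-102436404 (plus strand). Reads over the exons of each gene were counted, so that coding exons and UTRs enter together.

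The PKF118-310 library of line 242 stood apart from the other 5. It held 604984 counts, against 3160824 to 13766638 in the others, 11.8% of them mitochondrial against 1.84% to 3.10%, and it nevertheless had a count for 21241 genes. At this depth 3 counts were worth 4.96 CPM (counts scaled to a library of fixed total). Results are therefore given for the 3 lines and again for lines 240 and 352. The T-cell identity was visible in all libraries, as 9 of 10 T-cell markers had counts in every library and their summed level was 3746 to 5477 CPM in controls and 2873 to 5945 CPM in treated cells. Ptcra was the exception, at 0 in the treated library of line 242. Cd4 was at 56.4 and 40.7 CPM in the control and treated libraries of line 352, against 417 and 608 CPM in the other controls. The summed B-cell markers ran from 0 to 0.496 CPM in controls and from 1.33 to 83.5 CPM in treated cells, of which Pax5 made up 79.8 CPM in line 242. Summed stromal and epithelial markers were likewise highest in that library, at 68.7 CPM, against 0.314 to 1.25 CPM in controls. Myeloid markers summed to 10.4 to 44.0 CPM in controls and 11.2 to 59.4 CPM in treated cells. Itgam made up nearly all of the control sums, at 10.4, 18.9 and 43.9 CPM in lines 240, 242 and 352. In the treated library of line 242 it was at 40.8 CPM. Lyz2 was at 0 in all 6 libraries, and erythroid markers reached at most 0.319 CPM. Their part in the results was not tested. In these bulk libraries fewer cells of a type and less RNA per cell cannot be told apart.

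Sp1 had the most negative fitted change of the 9 genes. In line 240 its level was 250.1 CPM in the control and 218 CPM after PKF118-310. In line 242 the values were 301 and 273 CPM, the latter resting on 147 counts. In line 352 they were 307 and 198 CPM. All 3 lines had less Sp1 after the drug, but the treated library of line 242 lay above the control of line 240, so the groups overlapped. The log2 changes within lines were -0.20, -0.14 and -0.63. The interval that covers counting error alone left out 0 in line 240 (-0.34 to -0.06) and in line 352 (-0.70 to -0.56), but not in line 242 (-0.40 to 0.11). The interval of line 352 lay apart from those of the others, but in this line the 2 lanes of a library differed by more than counting error (chi-square per degree of freedom 2.01 and 2.05 over all genes), so its intervals are too narrow; whether these are lanes or cultures was not tested. Over the 3 lines the edgeR estimate was -0.33 ± 0.18 (SE; 95% interval -0.78 to 0.12; adjusted p = 0.842). Over lines 240 and 352 it was -0.43 ± 0.12 (SE; 95% interval -0.70 to -0.17; edgeR adjusted p = 0.0417), a call that rests on 1 residual degree of freedom among samples. Without TMM scaling the edgeR adjusted p was 0.0591, with the counts of line 352 halved it was 0.0796, and DESeq2 gave an adjusted p of 0.200.

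No other annotated gene overlaps Sp1. Its promoter is shown because it is the member that passed a test, with those of Tbl1x, lower in all 3 lines, and Crebbp, higher in all 3, for comparison. The windows run from 250 bases before to 50 bases after the RefSeq start (GRCm38.p6), which for these 3 genes is not the start given in the count tables. They are chr15:102406066-102406365 (plus strand) for Sp1, chrX:77510977-77511276 (plus strand) for Tbl1x and chr16:4213355-4213654 (minus strand) for Crebbp, each written 5′ to 3′. Capitals mark the GC box GGGCGG, the CCAAT box, and the TCF/LEF core CTTTGA, each on either strand.
Sp1: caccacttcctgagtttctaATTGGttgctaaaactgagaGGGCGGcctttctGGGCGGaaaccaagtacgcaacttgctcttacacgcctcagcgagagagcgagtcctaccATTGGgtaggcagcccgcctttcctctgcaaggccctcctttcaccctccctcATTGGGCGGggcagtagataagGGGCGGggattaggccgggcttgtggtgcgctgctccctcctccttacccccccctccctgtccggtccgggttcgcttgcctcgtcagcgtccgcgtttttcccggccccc
Tbl1x: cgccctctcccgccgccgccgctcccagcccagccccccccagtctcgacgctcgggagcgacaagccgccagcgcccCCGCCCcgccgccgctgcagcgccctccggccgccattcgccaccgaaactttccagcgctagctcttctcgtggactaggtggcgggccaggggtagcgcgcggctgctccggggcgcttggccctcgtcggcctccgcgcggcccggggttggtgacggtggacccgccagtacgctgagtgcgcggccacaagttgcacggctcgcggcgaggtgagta
Crebbp: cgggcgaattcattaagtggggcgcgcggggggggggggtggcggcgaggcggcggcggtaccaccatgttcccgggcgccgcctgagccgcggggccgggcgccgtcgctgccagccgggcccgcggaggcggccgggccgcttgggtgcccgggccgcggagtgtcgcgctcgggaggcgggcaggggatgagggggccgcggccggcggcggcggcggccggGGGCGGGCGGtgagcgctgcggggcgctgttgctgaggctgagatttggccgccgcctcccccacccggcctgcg
The Sp1 window held 4 GC boxes, the letters that the Sp1 protein itself reads, and 3 CCAAT boxes, all 3 written as ATTGG, of which 1 shares its last letters with a GC box. Tbl1x had 1 GC box and Crebbp 2 that overlap each other, and neither had a CCAAT box. RefSeq promoter windows were matched by symbol for 7 of the 9 genes, the exceptions being Ncoa2 and Ncoa3. All 7 genes had a GC box in a window, against 35.7% of 32851 mouse promoter windows of this length. Of the 8 windows of these genes, as Ncor1 has 2, the 7 with a GC box were 61.7% (Sp1) to 84.7% (Ncoa1) G and C, above the median promoter, at 52.7%, and the other window of Ncor1, at 38.3%, had none. Sp1 alone among the 7 had a CCAAT box, which 37.4% of all windows hold, and none of the 7 held CTTTGA, which 16.0% of all windows hold. These are matches of letters in a short window and say nothing about binding.

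Tbl1x was lower after PKF118-310 in each line, by a similar amount. Its level was 285 CPM in the control and 242 CPM after PKF118-310 in line 240, 301 and 245 CPM in line 242, and 190.2 and 171 CPM in line 352. The log2 changes were -0.23, -0.30 and -0.15, and in each line the counting interval left out 0. It was the only one of the 9 genes of which this was true. The groups still overlapped, since the control of line 352 lay below the treated libraries of lines 240 and 242. The edgeR estimate over 3 lines was -0.23 ± 0.15 (SE; 95% interval -0.60 to 0.15; adjusted p = 0.843). Over lines 240 and 352 it was -0.20 ± 0.11 (SE; 95% interval -0.42 to 0.03; edgeR adjusted p = 0.270).

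Tbl1xr1, the autosomal relative of the X-linked Tbl1x, did not share this pattern. Its level went from 124 to 119.6 CPM in line 240, from 164 to 202 CPM in line 242 and from 100.2 to 76.3 CPM in line 352. The log2 change was thus 0.30 in line 242, where the treated library had 109 counts, and -0.39 in line 352, where it had 1093. The counting interval held 0 in line 242 (-0.01 to 0.60) and in line 240 (-0.25 to 0.14), but not in line 352 (-0.51 to -0.28). Over 3 lines the edgeR estimate was -0.06 ± 0.18 (SE; adjusted p = 0.977), and over lines 240 and 352 it was -0.24 ± 0.12 (SE; adjusted p = 0.213). Within a library the ratio of Tbl1x to Tbl1xr1 per kb of exon was 2.90, 2.31 and 2.40 in the controls of lines 240, 242 and 352 and 2.55, 1.53 and 2.83 after the drug. The log2 ratio differed by -0.18 ± 0.42 (SD, n = 3; exact paired permutation test, two-sided, p = 0.75, where 0.25 is the smallest p that 3 pairs allow).

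Ncor1, the scaffold to which these 2 proteins bind, had small differences. Its values were 608 and 561 CPM in line 240, 693 and 703 CPM in line 242, and 519 and 463 CPM in line 352. The log2 changes of -0.11 in line 240 and -0.17 in line 352 were small but outside counting error, and that of 0.02 in line 242 was not. The edgeR estimate was -0.09 ± 0.17 over 3 lines (SE; 95% interval -0.52 to 0.35; adjusted p = 0.956) and -0.15 ± 0.11 over lines 240 and 352 (SE; adjusted p = 0.468). Ttc19 and Pigl lie on the opposite strand within the bounds of Ncor1, and the strand setting of the counting is not given in the sources used here, so some reads of these genes could not be told apart; the same holds for Sulf2 at Ncoa3.

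**Figure D1:**
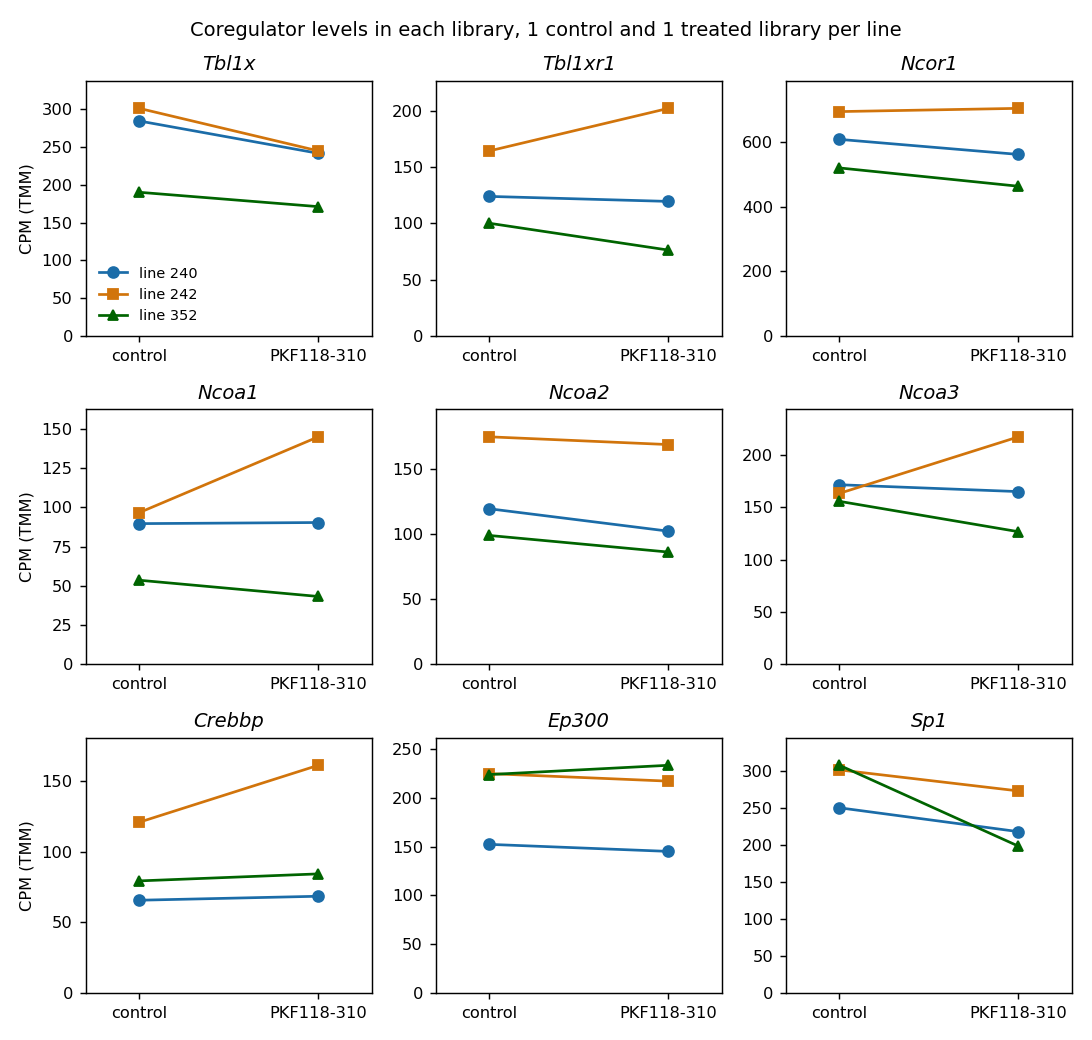
Levels of the 9 genes in CPM after TMM scaling (y axis, from 0) in the control and PKF118-310 libraries (x axis), with 1 line and symbol for each cell line. Sp1, Tbl1x and Ncoa2 slope down in all 3 lines and Crebbp slopes up in all 3, while Tbl1xr1, Ncoa1 and Ncoa3 slope up in line 242 and down in line 352.

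Among the p160 coactivators, Ncoa2 was the one that was lower in all 3 lines. Its level was 119.6 CPM in the control and 102 CPM after PKF118-310 in line 240, 175 and 169 CPM in line 242, and 99.1 and 86.3 CPM in line 352. The log2 differences of -0.22 in line 240 and -0.20 in line 352 were outside counting error, and that of -0.05 in line 242 was not. The estimate by edgeR was -0.16 ± 0.14 over 3 lines (SE; 95% interval -0.51 to 0.19; adjusted p = 0.852) and -0.21 ± 0.11 over lines 240 and 352 (SE; 95% interval -0.45 to 0.02; adjusted p = 0.231). Several unprocessed transcripts are annotated on the same strand within Ncoa2, and reads there may be shared with them.

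Ncoa1 and Ncoa3 were higher after the drug in line 242 and lower in line 352. Ncoa1 was at 89.6 and 90.3 CPM in line 240, 96.5 and 145 CPM in line 242, and 53.6 and 43.2 CPM in line 352. Ncoa3 was at 171 and 165 CPM in line 240, 163 and 217 CPM in line 242, and 156 and 127 CPM in line 352. For both genes the counting intervals in line 242 lay above 0 (0.21 to 0.95 for Ncoa1 and 0.11 to 0.70 for Ncoa3) and those in line 352 lay below 0 (-0.47 to -0.15 and -0.39 to -0.21), and the difference between lines was not tested, as each line has 1 library per treatment. The treated library of line 242 had 78 counts for Ncoa1 and 117 for Ncoa3. Over the 3 lines the edgeR estimates were 0.07 ± 0.21 for Ncoa1 and 0.01 ± 0.19 for Ncoa3 (SE; adjusted p = 0.977 and 0.999), and over lines 240 and 352 they were -0.17 ± 0.13 and -0.19 ± 0.11 (SE; adjusted p = 0.447 and 0.293). The ratio of Ncoa3 to Ncoa1, which does not depend on scaling, differed by -0.08 ± 0.09 on the log2 scale (SD, n = 3; exact paired permutation test, two-sided, p = 0.5). That of Ncoa2 to Ncoa1 differed by -0.25 ± 0.37 and that of Ncoa3 to Ncoa2 by 0.18 ± 0.28 (both exact p = 0.5).

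Neither acetyltransferase passed the test. Crebbp was at 65.7 and 68.6 CPM in line 240, 121 and 161 CPM in line 242, and 79.5 and 84.4 CPM in line 352. It was the only member higher in all 3 lines, with log2 changes of 0.06, 0.41 and 0.09, of which that in line 242, from 87 treated counts, lay outside counting error. The edgeR estimate was 0.18 ± 0.15 over 3 lines (SE; 95% interval -0.21 to 0.57; adjusted p = 0.852) and 0.07 ± 0.12 over lines 240 and 352 (SE; 95% interval -0.18 to 0.32; adjusted p = 0.744). Ep300 was at 152 and 145 CPM in line 240, 225 and 217 CPM in line 242, and 224 and 233 CPM in line 352, and no line left counting error. Its edgeR estimates were -0.02 ± 0.14 over 3 lines (SE; 95% interval -0.38 to 0.34; adjusted p = 0.993) and 0.00 ± 0.11 over lines 240 and 352 (SE; 95% interval -0.23 to 0.23; adjusted p = 0.991). The ratio of Ep300 to Crebbp was lower after the drug in each line, per kb of exon 2.20 and 2.01 in line 240, 1.76 and 1.28 in line 242, and 2.67 and 2.62 in line 352. The mean log2 change of this ratio was -0.21 ± 0.23 (SD, n = 3; exact paired permutation test, two-sided, p = 0.25, the smallest that 3 pairs allow; 0.625 adjusted over the 5 ratios). It was 0.0059 from lane 1 alone, -0.42 from lane 2 alone and -0.08 without line 242.

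**Figure D2:**
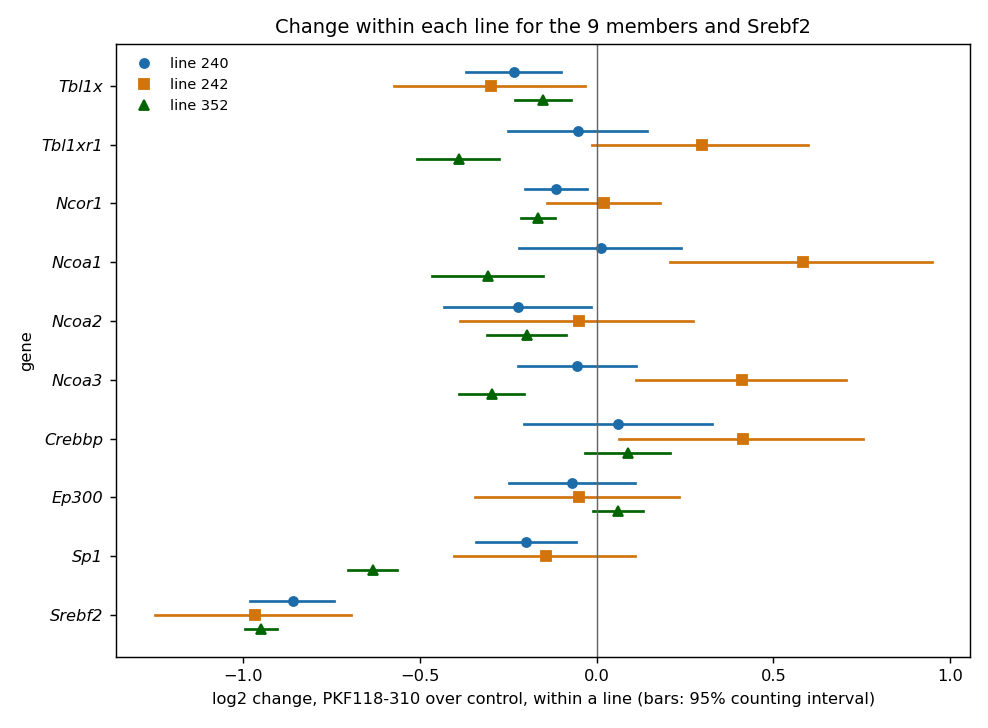
Log2 change of PKF118-310 over control within each line (x axis) for the 9 genes and Srebf2 (y axis); symbols give the lines and bars the 95% interval from counting error alone. The bars of line 242 are the widest, the 3 values of Tbl1x lie together between -0.30 and -0.15, and those of Ncoa1 are spread from -0.31 to 0.58.

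Counted over the group, edgeR called 0 of the 9 genes in either direction over 3 lines, where it called 0.0% of 10331 genes, 570 of which had an unadjusted p under 0.05. None of the 9 was among these. DESeq2, the edgeR likelihood ratio test and limma voom, which called 45, 85 and 801 genes, also called none of the 9. Over lines 240 and 352 edgeR called 1 of 9 lower, Sp1, and 0 higher, where 5.92% of 11760 genes were called lower and 5.01% higher. Sp1, Tbl1x, Tbl1xr1 and Ncoa2 were among the genes that the study singled out, as direct targets of the β-catenin complex with lower expression after the drug. It did so in part from the same 6 libraries, which leaves their direction without independent support. Its other evidence was ChIP-seq of Tcf7, which was not examined here. Lower in all 3 lines were 3 of 9, against 17.0% of all genes tested, and higher in all 3 was 1 of 9, against 15.9%. The control and treated groups overlapped for all 9, whereas 2.87% of genes had all treated below all control libraries and 3.29% the reverse. The median log2 change of the 9 was -0.06 over 3 lines (all genes 0.00) and -0.19 over lines 240 and 352 (all genes -0.01). By line, 7 of 9 were lower in line 240, 4 of 9 in line 242 and 7 of 9 in line 352, beside 5112, 5162 and 5185 of the 10331 genes tested.

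The 95% intervals show how much these fits resolved, but they do not measure the spread of a gene between lines alone. The residual degrees of freedom were 2 over 3 lines and 1 over lines 240 and 352. EdgeR therefore sets the variance of a gene in large part from the other genes. Over 3 lines the intervals ran from -0.78 at the lowest (Sp1) to 0.62 at the highest (Ncoa1), and over lines 240 and 352 from -0.70 (Sp1) to 0.32 (Crebbp), none of them reaching a change of 1 on the log2 scale. In the fits that keep line 242 and leave out another line they were wider and passed 1, for Sp1 to -1.22 and Tbl1x to -1.01 without line 240, and for Tbl1x to -1.07, Ncor1 to -1.03 and Ncoa1 to 1.02 without line 352. Srebf2, the SREBP factor of cholesterol synthesis with which these coregulators work and which lies on the same chromosome as Sp1 and Ep300, had larger differences. It was at 487 and 268 CPM in line 240, 432 and 221 CPM in line 242, and 812 and 421 CPM in line 352, with no overlap between the groups, and its estimate by edgeR over 3 lines was -0.93 ± 0.16 (SE; adjusted p = 0.842). Over lines 240 and 352 it was -0.91 ± 0.12 and passed the edgeR test (SE; adjusted p = 0.00072). In every line the log2 change of Srebf2 lay below that of each of the 9 coregulators. Srebf1, its relative in fatty acid synthesis, had an estimate of -0.59 ± 0.16 over 3 lines (SE; edgeR adjusted p = 0.842) and of -0.70 ± 0.11 over lines 240 and 352, where it passed (SE; edgeR adjusted p = 0.00204).

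**Figure D3:**
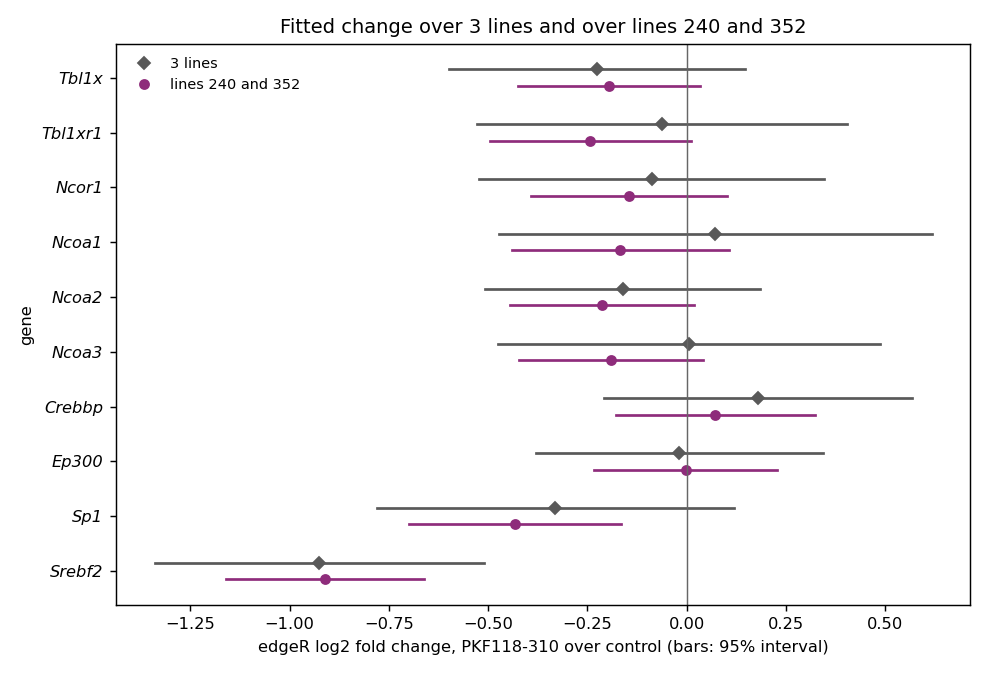
Log2 fold change fitted by edgeR (x axis) for the 9 genes and Srebf2 (y axis) over 3 lines (diamonds) and over lines 240 and 352 (circles), with 95% intervals as bars. Of the 9 genes only Sp1 has an interval that leaves out 0, over lines 240 and 352, at -0.70 to -0.17, and the interval of Srebf2 leaves out 0 in both fits.

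The level of the 9 genes was also compared between the lines. In the test of the line over all 6 libraries edgeR called 0 of 9, against 5.32% of genes tested. An unadjusted p under 0.05 was reached by 6 of the 9 and by 2886 of the 10331 genes tested. The smallest edgeR adjusted p was 0.0686 for Crebbp, then 0.0763 for Ncoa2 and 0.0949 for Ncoa1. On the same counts DESeq2 called 4 of 9, where it called 16.1% of all genes, the likelihood ratio test 5 of 9, beside 27.9%, and limma voom 6 of 9, beside 42.4%. Line 242 had the highest control level of 7 of the 9, all but Ncoa3 and Sp1. For Ep300 this was nearly a tie, at 224.8 CPM against 223.9 CPM in line 352. The share of all genes that were highest in the control of line 242 was not counted, so this is no trait of the 9. Between lines 240 and 352, which are better measured, 4 of 9 were called, against 44.7% of genes tested, so the share is that of the background. Ncoa1 was lower in line 352 by a log2 difference of -0.89 ± 0.13 (SE; edgeR adjusted p = 9.93e-05). Ep300 was higher in line 352 by 0.63 ± 0.11 (SE; edgeR adjusted p = 0.000413). Tbl1x and Tbl1xr1 were lower in line 352 by -0.53 ± 0.11 and -0.47 ± 0.12 (SE; edgeR adjusted p = 0.00127 and 0.006). The other 5, Sp1 among them with a difference of 0.09 ± 0.12, did not pass. The 2 acetyltransferases thus ran from a ratio of Ep300 to Crebbp of 1.76 per kb in the control of line 242 to 2.67 in that of line 352.

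Compared per kb of merged exons in the controls, Ncor1 stood first at 47.4 ± 6.8 CPM per kb (SD, n = 3), followed by Tbl1x at 36.7 ± 8.5 and Sp1 at 34.6 ± 3.8. Ncoa3 came next at 20.7 ± 1.0, then Tbl1xr1 at 14.6 ± 3.6 and Ep300 at 14.0 ± 2.9, and the last were Ncoa1 at 9.31 ± 2.7, Ncoa2 at 8.39 ± 2.5 and Crebbp at 6.55 ± 2.1. Neighbours whose mean difference within lines was smaller than its SD were Tbl1x and Sp1, Tbl1xr1 and Ep300, and Ncoa1 and Ncoa2. Per kb, Ncoa3 was thus the highest p160 transcript in the control of each line. Before division by length, Ncoa2 was above Ncoa3 in the control of line 242, at 175 against 163 CPM. Merged exons join all annotated isoforms of a gene, and which of these the cells expressed was not measured. The control values of Ncoa3 lay between 19.7 and 21.7 CPM per kb, the smallest SD of the 9. Of the paralogous pairs, Tbl1x exceeded Tbl1xr1 and Ep300 exceeded Crebbp in all 6 libraries.

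**Figure D4:**
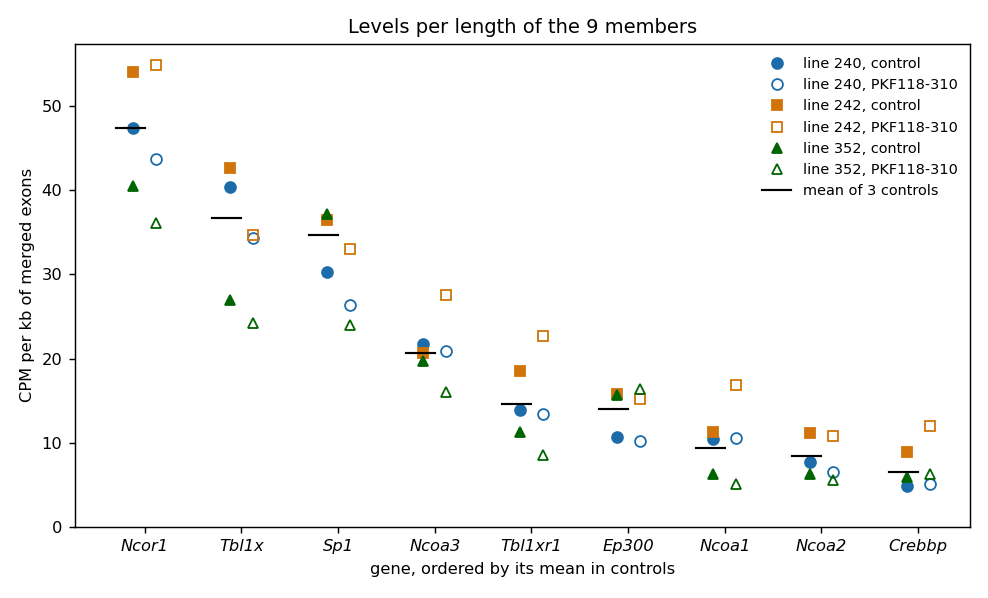
CPM per kb of merged exons (y axis, from 0) of the 9 genes in order of their control mean (x axis), with filled symbols for controls, open symbols for PKF118-310 and a bar for the mean of 3 controls. Ncor1 lies highest in each control library, and Crebbp lies lowest in each, at 4.86 to 8.94 CPM per kb.

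In the wider set of coregulators, calls were counted beside those over all genes. Of 48 further genes listed as SREBP coregulators, corepressor partners, acetyltransferases and other coactivators, or Sp family, 40 were tested, and edgeR called 0 of them over 3 lines. Of all 10331 genes it also called 0 over 3 lines. Over lines 240 and 352 it called 4 of the 40 lower and 0 higher, beside 5.92% and 5.01% of all genes. In both directions together, 10.9% of all genes were called there. DESeq2 on the same lines called none of the 4, with adjusted p from 0.266 to 0.377. All 4 had an unadjusted DESeq2 p under 0.05, and DESeq2 called 2.25% of all genes there. Without the line as a block edgeR called 0 of 11760 genes, so the lack of calls among the 4 says nothing about them. At an unadjusted edgeR p under 0.05 that fit had 0 of the 4 and 289 of all genes. Among the Sp family, Sp4 was lower in each line, at 64.5 and 44.6 CPM in line 240, 68.6 and 46.4 CPM in line 242, and 43.2 and 27.9 CPM in line 352, with overlapping groups. Its estimate was -0.59 ± 0.13 over lines 240 and 352 (SE; edgeR adjusted p = 0.0151) and -0.58 ± 0.15 over 3 lines (SE; edgeR adjusted p = 0.842). Sp3, the closest relative of Sp1, was lower by -0.23 ± 0.16 over 3 lines without passing the test (SE; edgeR adjusted p = 0.843), while Sp2 had an estimate of -0.08 ± 0.22, and Sp9 had at most 3 counts in the libraries of lines 240 and 242, so no fold is given for it.

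In the corepressor list, 2 of 9 tested genes were called lower over lines 240 and 352, beside 5.92% of all genes, and the list median was -0.10. Sin3a, the scaffold of a second deacetylase complex, was at 168 and 135 CPM in line 240, 182 and 135 CPM in line 242, and 167 and 127 CPM in line 352. All 3 treated libraries were below all 3 controls, as for 2.87% of all genes tested. The estimate over lines 240 and 352 was -0.36 ± 0.10 (SE; edgeR adjusted p = 0.0400), and with the counts of line 352 halved the edgeR adjusted p was 0.0609. Over 3 lines the estimate was -0.38 ± 0.14 (SE; edgeR adjusted p = 0.842). The other was Coro2a, named after its values were seen, at -0.52 ± 0.13 (SE; edgeR adjusted p = 0.0293), which in line 242 had 3 control and 9 treated counts, the opposite direction, so that the estimate over 3 lines was -0.03 ± 0.69 (SE; edgeR adjusted p = 0.999). Hdac3, the deacetylase that Ncor1 holds, was higher in each line without passing, with an edgeR estimate of 0.25 ± 0.15 over 3 lines (SE; adjusted p = 0.843), as was Sin3b, at 0.25 ± 0.15 (SE; adjusted p = 0.843). Ctbp1 was at 188 and 174 CPM in line 240, 231 and 102 CPM in line 242, and 274 and 218 CPM in line 352, with an edgeR estimate of -0.50 ± 0.24 over 3 lines (SE; adjusted p = 0.842).

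Of 16 tested acetyltransferases and other coactivators, 1 was called lower over lines 240 and 352, beside 5.92% of all genes. This was Kat7, a MYST acetyltransferase, at 154 and 128 CPM in line 240, 141 and 129.9 CPM in line 242, and 155 and 116 CPM in line 352, with an estimate of -0.35 ± 0.10 (SE; edgeR adjusted p = 0.0490). Over these 2 lines the edgeR adjusted p of Kat7 was 0.0601 without TMM scaling and 0.0697 with the counts of line 352 halved. Over 3 lines its estimate was -0.28 ± 0.14 (SE; edgeR adjusted p = 0.842). Kat6a, Cited2, a partner of CBP and p300, and Kat8 had edgeR estimates over 3 lines of -0.21, -0.34 and 0.26 and did not pass. None of 11 tested SREBP coregulators was called by edgeR in either fit. Those with the smallest p over 3 lines were Rxra, Helz2, Nfya, a subunit of NF-Y, and Chd9, with estimates of 0.31, 0.37, -0.15 and 0.22, and the value of Helz2 came from line 242, where the log2 change was 1.40, against -0.13 and 0.02 in the others. In the same order, the medians of the SREBP, corepressor, acetyltransferase and Sp lists over 3 lines were 0.00, -0.03, -0.07 and -0.16, beside 0.00 for all genes.

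For 8 of the 9, the gene whose log2 CPM followed it most closely over the 6 libraries was looked up among 7293 genes averaging at least 20 CPM. Pearson's r was 0.996 for Tbl1x with Nedd1, 0.998 for Tbl1xr1 with Usp31, 0.996 for Ncoa1 with Dennd3, 0.997 for Ncoa2 with Dyrk1a, 0.995 for Ncoa3 with Bcl10, 0.994 for Crebbp with Slc1a4, 0.993 for Ep300 with Dsg2 and 0.978 for Sp1 with Terf1. With 6 libraries in 3 pairs many genes reach such values, as the tenth best r was 0.870 for Sp1 and 0.978 to 0.991 for the others, and the libraries share depth and line. Terf1, a telomere-binding protein, had the pattern of Sp1, with 46.7 and 27.8 CPM in line 352 against 40.7 and 33.2 CPM in line 240. Dsg2 had no count in line 240, so its likeness to Ep300 is a difference between lines.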

How the data were processed

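RNA from 3 mouse lymphoma lines was sequenced from a stranded mRNA library kit. The deposited files hold raw counts of reads per gene and lane, 2 lanes for each of 6 libraries. The authors aligned the reads to mm10 with HISAT2 and counted with HTSeq according to the submitters' notes, which give no versions and also list edgeR, whereas the study's methods name TopHat; the strand setting is not given in the sources used here. Groups and lines were taken from the sample titles. Lanes were summed, giving 604984 to 13766638 counts per library. The 9 genes, and the lists they were set beside, were chosen with earlier results of these data known. Gene lengths are merged exons of GENCODE, for 48108 matched symbols.

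All genes were fitted with edgeR 4.0.16 in R 4.3.3 (filterByExpr, TMM, quasi-likelihood F test, treatment and line as terms), with Benjamini-Hochberg adjustment over the 10331 genes kept (99.0% of counts) and a threshold of 0.05. Lines pair the libraries, as both come from cells of the same mouse; deviations of a pair correlated at 0.67, 0.30 and 0.79. Counting intervals and floors (3 counts) are at 95% and cover counting error only. Ratios used a prior count of 0.5 and log2 CPM a prior count of 2. Beside the 9 genes, Srebf1 and Srebf2, the genes named were up to 4 per list with the smallest p over 3 lines and, for each of the 9, the gene with the highest r, passing over predicted genes; that for Ncor1 is not reported here. Limma 3.58.1 and DESeq2 1.42.0 served as alternatives. The fits were tested on simulated data.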

Additional observations from a re-analysis of the deposited data

How the results depend on the processing

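Most of what depended on processing depended on line 242. Without it, over lines 240 and 352, 1 of 9 genes was called lower in place of 0 over 3 lines, 4 of the other coregulators were called lower in place of 0, and the median log2 change of the 9 was -0.19 in place of -0.06. Leaving out each line in turn gave 0 to 1 of the 9 genes called lower and 0 to 4 other coregulators called lower. Of all genes, 0 of 11859 were called lower without line 240, 696 of 11760 without line 242 and 0 of 10207 without line 352. Between lines 0 to 4 of the 9 were called, beside 7.29%, 44.7% and 2.05% of all genes in the same order. The medians ran from -0.19 to -0.068. Ncoa1 (-0.17 without line 242, up to 0.27) and Ncoa3 (-0.19 without line 242, up to 0.15) reversed, as did Tbl1xr1 (0.10) without line 352. Without the replicate block Tbl1xr1 was at 0.012 and no member was called; no call over 3 lines depended on the pairing, since there was none. Limma voom with sample weights called 1 of the other coregulators lower, beside 474 of 10331 genes, and put Ncoa1 and Ncoa3 at -0.13 each. Ncoa3 was at -0.00084 with DESeq2 size factors and -0.073 with lane 2 alone, Ncoa1 at -0.0030 and Ep300 at 0.046 with lane 1 alone. With no filter but a count, which moved the median of all genes by 0.51, Ncoa1 was at -0.011 and Ncoa3 at -0.079. The log2 ratio of Ncoa3 to Ncoa1 was 0.017 from lane 1 and -0.18 from lane 2; that of Ep300 to Crebbp was 0.0059 and -0.42, and that of Tbl1x to Tbl1xr1 was 0.03 without line 242.

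The test of the line called 4 of 9 genes with DESeq2 (16.1% of all genes), 5 with the likelihood ratio test (27.9%), 6 with limma voom (42.4%), 1 with no filter (10.5%) and 1 with the replicate block alone (8.88%). Alternatives over lines 240 and 352 were chosen after seeing the data. There DESeq2 size factors in edgeR kept Sp1 (-0.44, edgeR adjusted p = 0.0241), with 1 member and 4 other coregulators lower (821 of 11760 genes). The median was -0.20, Ncoa1 -0.18 and Ncoa3 -0.20, and 5 of the 9 were called between lines, beside 45.9% of all genes. Library totals, halved counts of line 352, DESeq2 and no replicate block lost the call of Sp1, and the cause was not tested. Library totals gave 3 other coregulators lower (497 of 11760 genes) and 5 of the 9 between lines (43.1% of genes). The median was -0.18, Ncoa1 -0.15, Ncoa3 -0.18 and Ep300 0.011. Halved counts gave 1 other coregulator lower (352 of 11081 genes) and 4 between lines (43.8%), with median -0.19, Ncoa1 -0.16 and Ncoa3 -0.19. DESeq2 gave 0 lower (158 of 11760 genes) and 3 between lines (23.4%), with median -0.20, Ncoa1 -0.17 and Ncoa3 -0.20. Without the block 0 other coregulators were lower, with Ncoa1 -0.11, Ncoa3 -0.17 and Ep300 0.0056. That fit called 0 of 11760 genes, so no call could be kept there. The block alone gave 2 of the 9 between lines (22.1%). The estimate for Sp1 ran from -0.46 (lane 1 alone; -0.24 from lane 2) to -0.19 (without line 352). Sp1, Tbl1x, Ncoa2, Ncor1 and Crebbp had the same sign in all 19 fits. Depth limits the treated library of line 242, where the 9 genes had 78 to 379 counts each.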
